A study of Mus musculus with 18 samples.

Results

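The genes described here are interferon response genes: transcripts that interferons are known to induce, with transcription factors that carry the response. The list held 38 names. Each gene was read from probe sets annotated to its symbol alone, and where several were present the probe set with the highest mean signal over all 18 arrays stood for the gene. By this rule 36 of the 38 genes were found among the 18161 genes that have such a probe set. Isg15 was measured only by a probe set that is shared with Gm9706, so it is given as a description and was not tested, and Ifi44 is not analysed here. The filter on low values kept 34 of the 36, since Oas3 (26.3 to 41.5 intensity units over the 18 arrays) and Mx1 (10.8 to 13.7) did not reach the median level in any group.

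Gene expression was measured in whole ovaries of female mice of a mixed C57B6J/S129 background, given as 21 days old, on Affymetrix arrays. The 6 groups had 3 biological replicates each. Pik3cd+/- mice, with 1 null allele of Pik3cd, were untreated, or were killed 44 h after a single injection of 10 IU of PMSG, or 72 h after the first of 3 injections of 0.03 ml of E2 given every 24 h. Pik3cd-/- mice, with no intact allele, made up the other 3 groups under the same treatments. PMSG is a gonadotropin that acts on the FSH receptor of growing follicles, E2 is oestradiol, and the protein made from Pik3cd, p110 delta, is a form of phosphoinositide 3-kinase best known from leukocytes. The arrays used here hold no wild-type group and no vehicle-injected group, so every mouse lacked at least 1 allele, and each treatment effect includes injection and the hours that passed. How the null allele was made, and the E2 concentration, are not given in the sources used here. The study took a 2-fold difference from untreated Pik3cd+/- ovaries as its mark for a target of PMSG or E2, and asked which targets failed to respond without Pik3cd.

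Interferons bind receptors that signal through Janus kinases to STAT proteins. Type I interferon assembles a complex of STAT proteins with Irf9 that binds the interferon-stimulated response element (ISRE), while interferon gamma acts through STAT dimers on the gamma-activated site (GAS), with Irf1 among its early targets. The induced proteins sense or degrade foreign RNA (OAS enzymes, Ifih1, Dhx58), block translation or assembly of viruses (IFIT proteins, Rsad2, Bst2), attack vacuoles that hold pathogens (Irgm1, Igtp, Gbp2), feed peptides to MHC class I (Tap1, Psmb8, Psmb9) or restrain the response itself (Usp18). In the ovary, resident macrophages and follicle cells can both express such genes, and in bulk RNA fewer cells of a type and less RNA per cell cannot be told apart.

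Promoter sequences are shown because the genes were grouped by their response to interferon, which acts through these motifs. RefSeq promoters (GRCm38.p6, 250 bases before to 50 after the start) were at hand for 29 of the 38 genes. The ISRE core was searched as GAAA, any 2 bases and again GAAA, on both strands. It was present in 13 of the 29 genes (44.8%), against 1079 of 27025 genes (3.99%, or 3.44% of all 32851 promoters of that length). The GAS core TTCNNNGAA, also on both strands, was present in 7 of the 29 (24.1%), against 9.55% of genes and 8.30% of promoters. Only in Bst2 did matches of the motifs overlap. The first 4 sequences belong to the genes with an ISRE core that had the largest called differences between the genotypes after E2, and the last 2 to such genes without one; each runs 5′ to 3′ on the gene's strand with the ISRE core match in capitals.
Ifit1 (chr19:34640639-34640938, plus strand): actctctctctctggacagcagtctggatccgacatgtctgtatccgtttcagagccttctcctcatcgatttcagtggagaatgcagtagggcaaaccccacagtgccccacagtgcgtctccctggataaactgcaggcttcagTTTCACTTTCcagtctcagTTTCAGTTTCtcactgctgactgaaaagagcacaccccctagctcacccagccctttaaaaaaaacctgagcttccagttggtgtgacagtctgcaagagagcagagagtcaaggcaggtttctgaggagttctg
Ifit3 (chr19:34583279-34583578, plus strand): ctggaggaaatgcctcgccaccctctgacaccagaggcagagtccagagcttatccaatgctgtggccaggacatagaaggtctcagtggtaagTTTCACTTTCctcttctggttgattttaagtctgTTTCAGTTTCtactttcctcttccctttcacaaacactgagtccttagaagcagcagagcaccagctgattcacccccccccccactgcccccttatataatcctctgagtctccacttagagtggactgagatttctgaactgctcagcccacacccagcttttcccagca
Rsad2 (chr12:26456403-26456702, minus strand): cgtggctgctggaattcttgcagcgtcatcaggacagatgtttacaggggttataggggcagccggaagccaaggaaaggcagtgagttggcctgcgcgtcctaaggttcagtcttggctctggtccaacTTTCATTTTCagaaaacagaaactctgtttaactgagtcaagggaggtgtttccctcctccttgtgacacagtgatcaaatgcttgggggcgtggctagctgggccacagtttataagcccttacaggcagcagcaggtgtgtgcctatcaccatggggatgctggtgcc
Ifih1 (chr2:62646206-62646505, minus strand): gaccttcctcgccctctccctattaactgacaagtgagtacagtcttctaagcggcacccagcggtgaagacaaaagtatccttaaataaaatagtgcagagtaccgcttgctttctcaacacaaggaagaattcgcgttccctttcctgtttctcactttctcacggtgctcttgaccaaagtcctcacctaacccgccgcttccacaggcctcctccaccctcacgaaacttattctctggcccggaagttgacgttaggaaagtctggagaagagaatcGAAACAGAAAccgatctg
Oasl2 (chr5:114896684-114896983, plus strand): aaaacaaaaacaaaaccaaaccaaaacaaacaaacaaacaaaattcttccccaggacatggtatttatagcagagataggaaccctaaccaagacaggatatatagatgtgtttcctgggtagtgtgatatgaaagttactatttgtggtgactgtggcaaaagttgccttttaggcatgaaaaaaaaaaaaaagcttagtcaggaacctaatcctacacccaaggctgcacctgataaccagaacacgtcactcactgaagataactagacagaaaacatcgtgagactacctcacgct
Xaf1 (chr11:72301379-72301678, plus strand): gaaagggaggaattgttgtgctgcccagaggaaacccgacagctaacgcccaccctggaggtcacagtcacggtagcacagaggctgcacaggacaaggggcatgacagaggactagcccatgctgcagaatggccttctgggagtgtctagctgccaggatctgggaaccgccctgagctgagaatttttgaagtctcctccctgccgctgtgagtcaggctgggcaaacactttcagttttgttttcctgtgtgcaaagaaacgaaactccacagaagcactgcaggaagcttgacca

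In Ifit1 the ISRE core matches began 104 and 85 bases before the start, in Ifit3 156 and 122 bases before it and in Rsad2 120 bases before it, while in Ifih1 the match lay after the start. Among the genes lower in Pik3cd-/- ovaries after E2, 5 of 12 with a promoter held the ISRE core (41.7%), and among the tested genes that were not called in that comparison 6 of 14 did (42.9%). A match of letters is a description and not a binding site, and its absence says only that these letters are not in this window. Several of the genes are neighbours on their chromosomes: Ifit2 and Ifit3, Oas2 and Oas3, Oasl1 and Oasl2, Rsad2 and Cmpk2, Parp9, Dtx3l and Parp14, and Psmb9, Tap1 and Psmb8.

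The 18 arrays had median signals between 48.4 and 50.9 intensity units, and each correlated with its group mates at a mean of 0.969 to 0.993 over all probe sets. Of the 6 probe sets for Pik3cd, 2 were lower on all 9 Pik3cd-/- arrays than on all 9 Pik3cd+/- arrays, the clearer at 19.1 to 28.8 against 61.4 to 73.1. Arrays that stood apart for the genes below were replicate 1 of Pik3cd-/- after PMSG, which was high, and replicate 2 of Pik3cd-/- after E2. The latter had a summed signal of 1579 for 12 macrophage markers against 4459 and 6912 on its group mates, and 1483 for 8 endothelial markers against 2351 and 2392. Changes are differences of log2(signal + 8.58) ± SE of the model with 3 arrays a group, and adjusted p-values (padj) are from limma over 12703 tested genes, with calls made under 0.05.

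Of the 34 interferon response genes, 12 rose after E2 in Pik3cd+/- ovaries and 0 in Pik3cd-/- ovaries, and 18 were lower in E2-treated Pik3cd-/- than in E2-treated Pik3cd+/- ovaries. Of all genes tested, 1.18% rose after E2 in Pik3cd+/- ovaries, 0.0551% were called for E2 in Pik3cd-/- ovaries, and 12.0% were lower in Pik3cd-/- after E2. The list was chosen with earlier results of these data known, so its contrast with all genes is a description. The interaction of E2 and genotype passed for 0 of the 34 genes and 0% of all genes. The mean log2 level of the 34 genes was 7.69, 7.56 and 7.28 on the untreated Pik3cd+/- arrays and 8.14, 8.49 and 8.52 after E2. In Pik3cd-/- ovaries it was 7.58, 7.72 and 7.43 untreated and 7.75, 7.67 and 7.86 after E2. All 3 E2-treated Pik3cd+/- arrays lay above all 9 of those other arrays. After PMSG it was 8.14, 7.73 and 8.03 in Pik3cd+/- ovaries and 8.25, 7.39 and 7.61 in Pik3cd-/- ovaries, where the groups overlapped.

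**Figure D1:**
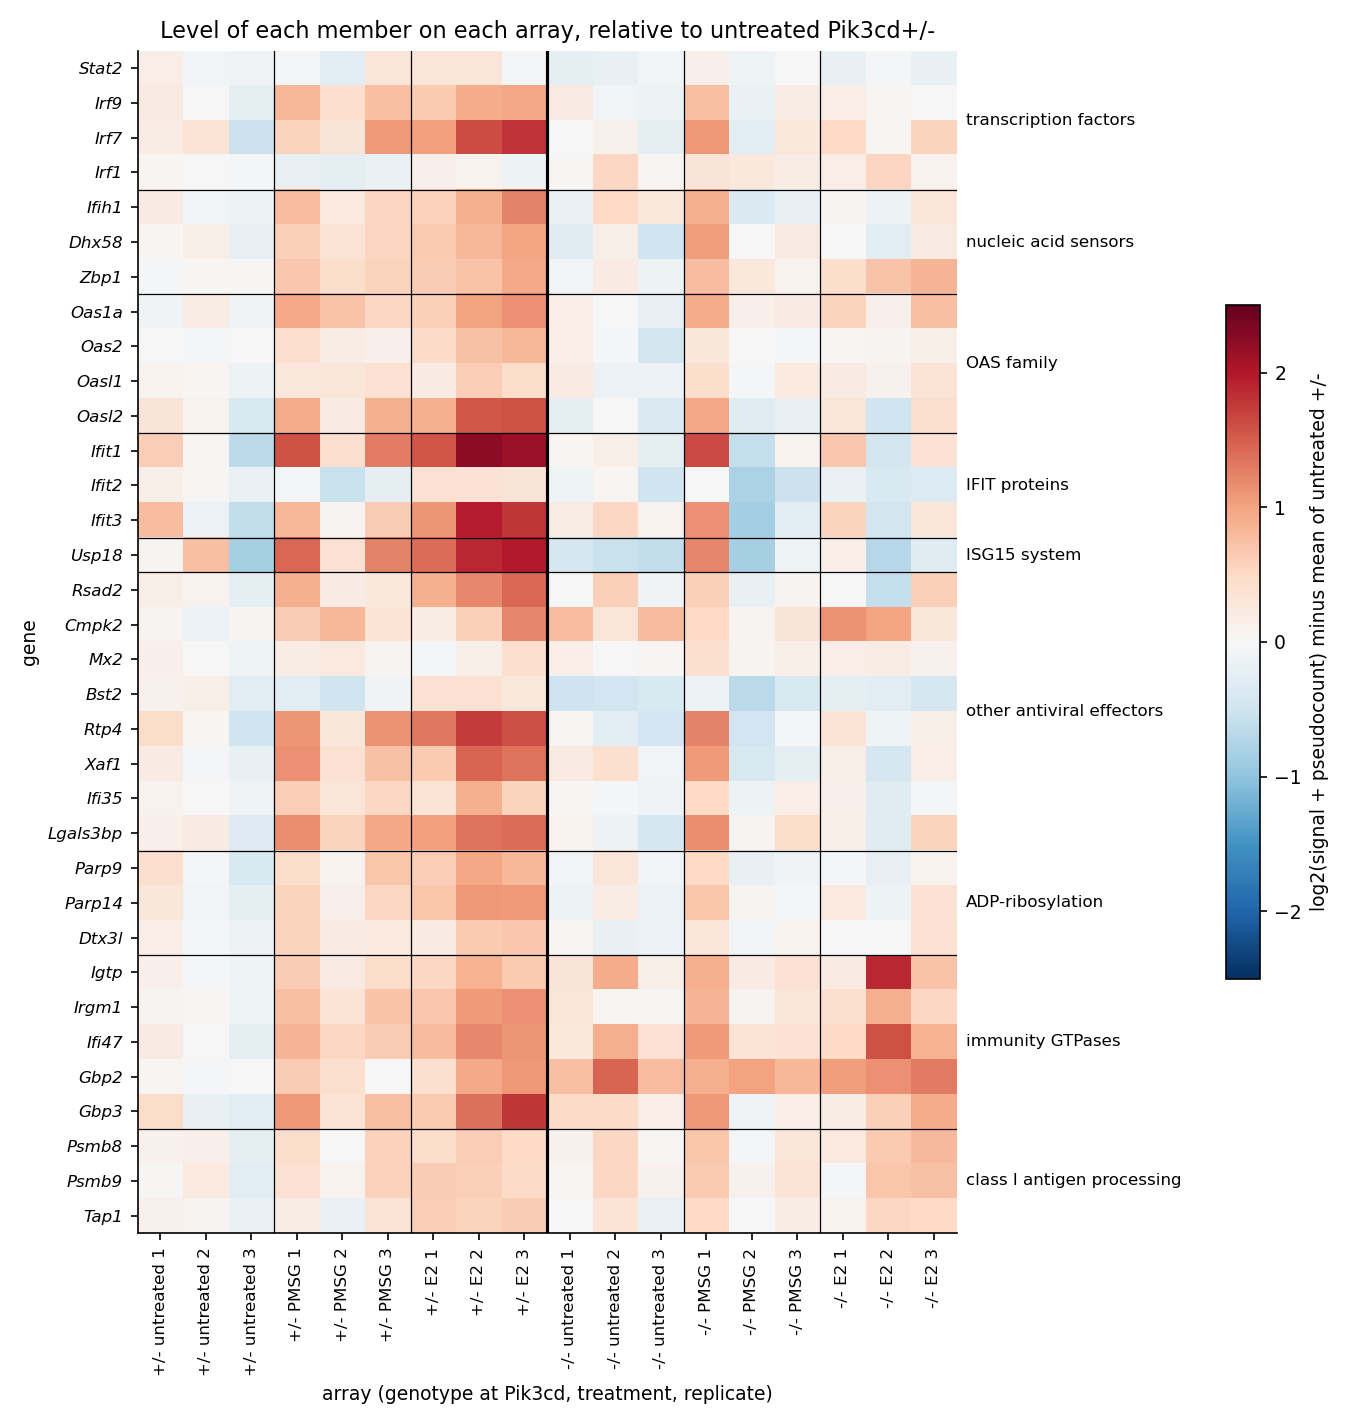
Each row is 1 of the 34 tested genes, grouped by role, and each column 1 array; colour is log2(signal + 8.58) minus the gene's mean on the 3 untreated Pik3cd+/- arrays. The 3 E2-treated Pik3cd+/- columns are red for nearly every gene, the 3 E2-treated Pik3cd-/- columns are mostly pale, with redder cells among the immunity GTPases, the class I genes, Zbp1 and Cmpk2, and replicate 1 of Pik3cd-/- after PMSG is redder than its group mates for most genes.

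The E2 effect in Pik3cd+/- ovaries passed for 12 of the 34 genes, all higher, with a median change over the 34 of 0.82 and a range of 0.03 to 1.98. Of the 12, Zbp1 passed the filter on low values only through the E2-treated Pik3cd+/- group. With the filter at the 70th percentile, 12 of 28 genes were called. Over all genes tested, 1.18% were called higher and 1.62% in either direction, and the median change was 0.0036. On single arrays 31 of the 34 genes were higher after E2 without overlap, against 14.2% of all genes. At least a 2-fold change was seen in 11 of the 34, of which 5 were called. The count depended on single arrays: it was 0 without untreated replicate 3 or without E2 replicate 2 or 3 of Pik3cd+/-, 2 without untreated replicate 1 or 2, 7 without E2 replicate 1, and 21 without replicate 1 of Pik3cd-/- after PMSG or replicate 3 of Pik3cd-/- after E2, which enter through the shared spread. It was 26 with only the groups of this comparison in the model.

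In Pik3cd-/- ovaries E2 changed 0 of the 34 genes by the same limma test, with 3 at an unadjusted p under 0.05, a median of 0.20 and a range of -0.23 to 0.67. Of all genes tested, 0.0551% were called (7 genes, and 1859 at an unadjusted p under 0.05). Oas1a (0.48 ± 0.21, padj = 0.318), Rtp4 (0.37 ± 0.35, padj = 0.616) and Usp18 (0.24 ± 0.45, padj = 0.810) did not pass there, nor did Psmb8 (0.35 ± 0.20, padj = 0.403), Tap1 (0.30 ± 0.16, padj = 0.394) or Stat2 (0.04 ± 0.14, padj = 0.907). Between the genotypes after E2, 18 of the 34 genes were lower in Pik3cd-/- ovaries and none was higher, with a median difference of -0.65 and a range of -2.04 to 0.35. Of all genes, 12.0% were called lower in Pik3cd-/- and 16.9% in either direction, with a median of -0.07. The 19 genes without overlap between single arrays compare with 24.5% of all genes. The comparison of the genotypes and the E2 effect in Pik3cd+/- share the 3 E2-treated Pik3cd+/- arrays. The count of 18 was 3 without E2 replicate 2 of Pik3cd+/-, and 8 and 5 without E2 replicate 1 and 2 of Pik3cd-/-, and it was 6 with only these groups in the model. Bst2 and Usp18 were called under every alternative, with padj of at most 0.0399 and 0.0413.

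**Figure D2:**
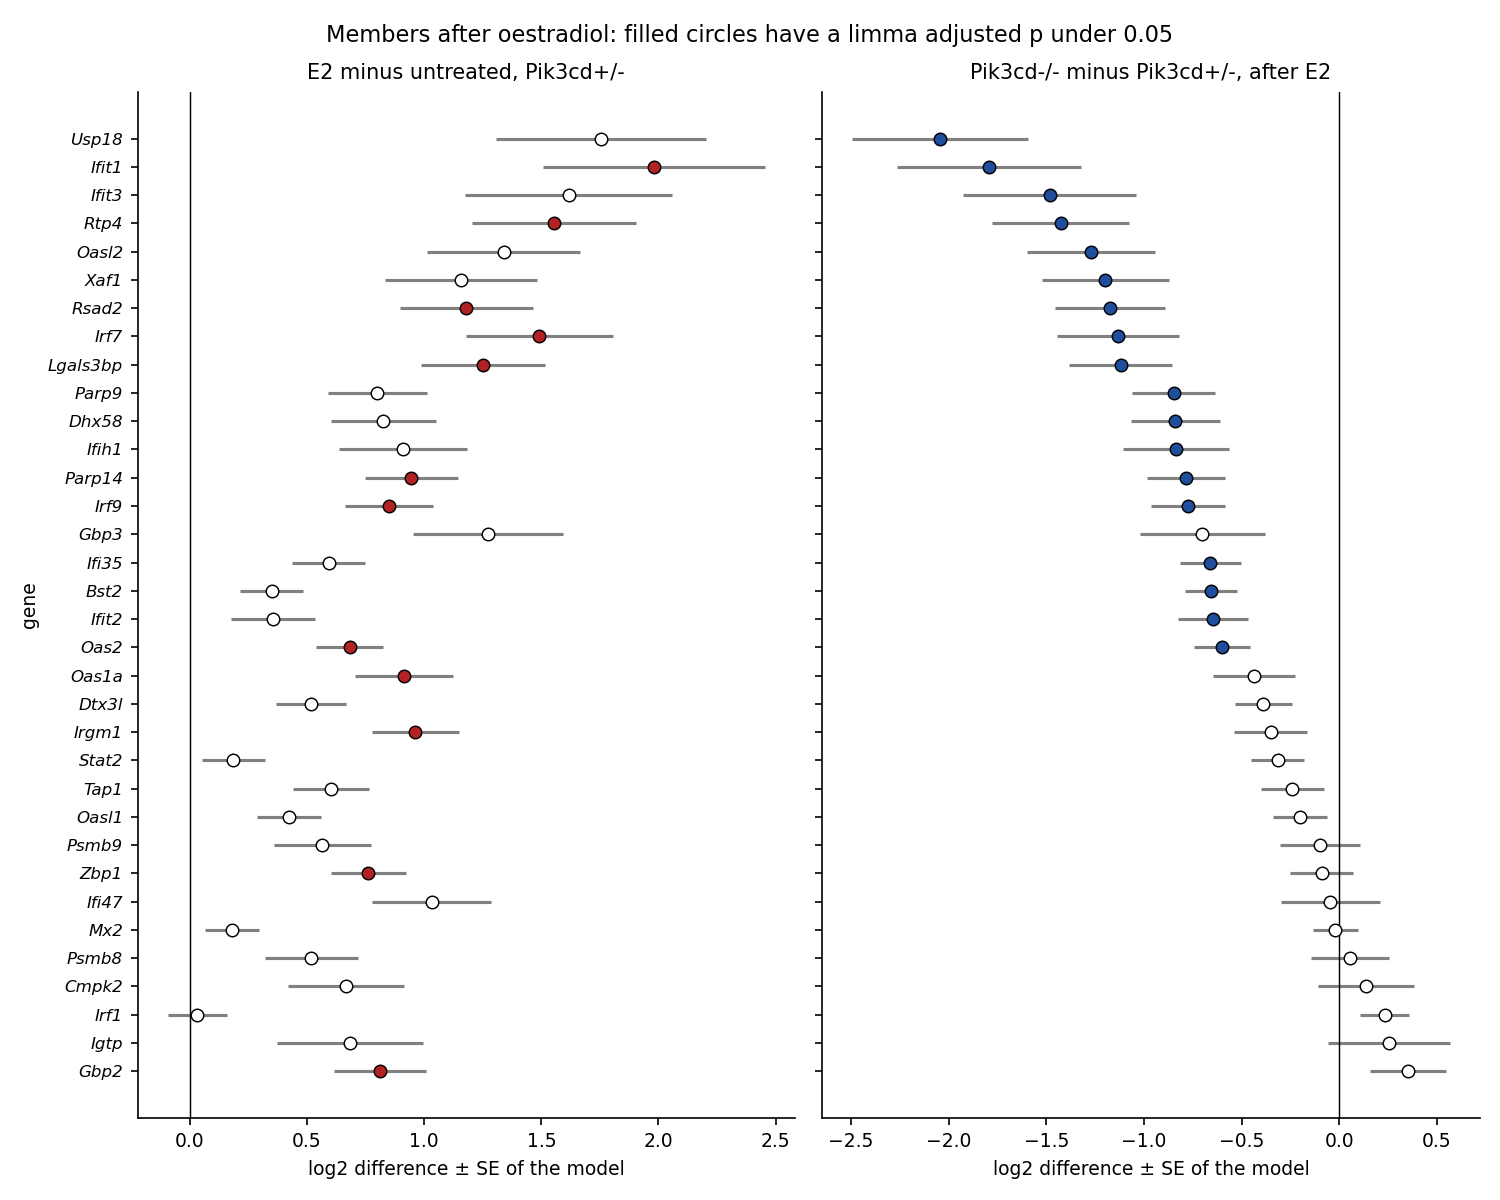
For each of the 34 genes (rows) the points give the log2 difference ± SE of the model, on the left for E2 minus untreated in Pik3cd+/- ovaries and on the right for Pik3cd-/- minus Pik3cd+/- after E2; filled points have a limma padj under 0.05. All 34 points on the left are above 0, and on the right 29 are below 0, from Usp18 at -2.04 up, with Gbp2 at 0.35 at the other end.

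The counts by role and by list below compare with 1.18% of all genes called higher after E2 in Pik3cd+/-. Between the genotypes after E2, 12.0% of all genes were called lower and 4.87% higher in Pik3cd-/-. Of the transcription factors, Irf7, Irf9, Stat2 and Irf1, the first and second were called after E2. Irf7, which drives the later wave of interferon production, read 83.9, 94.4 and 47.4 units in untreated Pik3cd+/- ovaries and 156, 244 and 276 after E2. In Pik3cd-/- ovaries it read 72.9, 79.3 and 59.9 untreated and 106, 73.95 and 110.0 after E2. The E2-treated Pik3cd+/- arrays were the highest of these 12 and did not overlap with any of the rest. The change was 1.49 ± 0.31 in Pik3cd+/- (padj = 0.0281) and 0.40 ± 0.31 in Pik3cd-/- (padj = 0.540), and the genotypes differed by -1.13 ± 0.31 after E2 (padj = 0.0250).

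Irf9, the DNA-binding part of the type I complex, read 333, 288 and 239 untreated and 455, 547 and 563 after E2 in Pik3cd+/- ovaries. In Pik3cd-/- ovaries it read 332, 269.9 and 260.0 untreated and 321, 294 and 286 after E2, so that these groups overlapped with each other and with untreated Pik3cd+/-. The change was 0.85 ± 0.19 in Pik3cd+/- (padj = 0.0336) and 0.07 ± 0.19 in Pik3cd-/- (padj = 0.879), and the genotypes differed by -0.78 ± 0.19 after E2 (padj = 0.0149). Stat2, its partner in the complex, gave 74.8 ± 8.65 (SD, n = 3) untreated and 86.5 ± 11.9 after E2 in Pik3cd+/- (0.19 ± 0.14, padj = 0.521). After E2 it gave 67.5 ± 5.07 in Pik3cd-/-, a difference of -0.31 ± 0.14 (padj = 0.114). The other probe set of Stat2, which was dimmer, read 66.8, 64.6 and 68.5 after E2 in Pik3cd+/- and 52.8, 50.6 and 42.8 in Pik3cd-/-, without overlap.

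Irf1, an early target of interferon gamma, stood outside this pattern. It read 605, 589 and 562 untreated and 639.9, 625 and 535 after E2 in Pik3cd+/- ovaries, and 597, 839 and 605 and then 659.8, 853 and 620.4 in Pik3cd-/- ovaries. The groups overlapped within each genotype. The E2 change was 0.03 ± 0.13 in Pik3cd+/- (padj = 0.936) and 0.07 ± 0.13 in Pik3cd-/- (padj = 0.810), and after E2 the genotypes differed by 0.23 ± 0.13 (padj = 0.204).

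Nucleic acid sensors comprised Ifih1, Dhx58 and Zbp1. Of these, 1 was called higher after E2 in Pik3cd+/- and 2 were lower in Pik3cd-/- after E2, with medians of 0.83 and -0.84. Ifih1, which detects long double-stranded RNA, was at 485 ± 111 in Pik3cd+/- and 265 ± 41.1 in Pik3cd-/- after E2, a difference of -0.84 ± 0.27 (padj = 0.0474) that was lost on leaving out any 1 of 13 arrays. Dhx58, its regulator, was at 75.5 ± 9.81 and 38.7 ± 8.08 (-0.84 ± 0.23, padj = 0.0224). Zbp1, which senses Z-form nucleic acid, went the same way in both genotypes: 26.6, 28.6 and 28.4 untreated and 47.8, 51.3 and 61.3 after E2 in Pik3cd+/-, and 26.1, 33.6 and 24.6 and then 40.9, 51.2 and 57.4 in Pik3cd-/-. The groups did not overlap within either genotype. The change was 0.76 ± 0.16 in Pik3cd+/- (padj = 0.0279) and 0.67 ± 0.16 in Pik3cd-/-, which did not pass (padj = 0.173), and the genotypes after E2 differed by -0.09 ± 0.16 (padj = 0.714). Zbp1 passed the filter on low values only through its mean level in E2-treated Pik3cd+/- ovaries. Its call as higher in that group is therefore not independent of the filter.

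The OAS enzymes make a second messenger that activates RNase L, and the OAS-like proteins are their relatives. Of the 4 tested, 2 were called higher after E2 in Pik3cd+/- and 2 lower in Pik3cd-/- after E2, with medians of 0.80 and -0.52. Oas2 read 66.6, 64.6 and 66.1 untreated and 94.7, 116 and 124 after E2 in Pik3cd+/-, against 67.3, 69.7 and 73.2 after E2 in Pik3cd-/-. All 3 E2-treated Pik3cd+/- arrays were the highest. The change was 0.68 ± 0.14 (padj = 0.0271), and the genotypes differed by -0.60 ± 0.14 (padj = 0.0134). Oas1a read 92.05, 113 and 92.7 untreated and 154, 206 and 229 after E2 in Pik3cd+/- (0.91 ± 0.21, padj = 0.0404), and 149, 109 and 171 after E2 in Pik3cd-/-. The genotypes overlapped there, with a difference of -0.44 ± 0.21 (padj = 0.152). Oasl2 went from 152 ± 39.5 to 398 ± 101 in Pik3cd+/- (1.34 ± 0.33, padj = 0.0516), and was at 162 ± 52.0 in Pik3cd-/- after E2, a difference of -1.27 ± 0.33 (padj = 0.0190).

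IFIT proteins bind viral RNA ends and halt its translation. All 3 were lower in Pik3cd-/- than in Pik3cd+/- ovaries after E2, and 1 of 3 was called for the E2 effect in Pik3cd+/-, with medians of -1.48 and 1.62. Ifit1 read 131, 84.7 and 49.8 untreated and 261, 419 and 398 after E2 in Pik3cd+/- ovaries, and 85.5, 91.9 and 69.9 and then 137, 57.5 and 109 in Pik3cd-/- ovaries. The E2-treated Pik3cd+/- arrays stood clear of the other 9 arrays, while the Pik3cd-/- arrays overlapped. The change was 1.98 ± 0.47 in Pik3cd+/- (padj = 0.0472) and 0.20 ± 0.47 in Pik3cd-/- (padj = 0.854), and the genotypes differed by -1.79 ± 0.47 after E2 (padj = 0.0208). Ifit3, the partner of Ifit1, read 205, 105 and 73.1 untreated, 261, 483 and 424 after E2, and 175, 83.02 and 147 after E2 in Pik3cd-/-. Untreated replicate 1 of Pik3cd+/- was well above its group mates, as it was for Ifit1. The change of Ifit3 in Pik3cd+/- was 1.62 ± 0.44 (padj = 0.0734), and the genotypes differed by -1.48 ± 0.44 (padj = 0.0335). Ifit2 differed by -0.65 ± 0.18 (padj = 0.0252).

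Isg15 is a ubiquitin-like modifier, and Usp18 removes it from proteins and also blocks the type I receptor. Usp18 read 92.9, 155 and 45.8 untreated and 245, 348 and 374 after E2 in Pik3cd+/- ovaries, and 63.3, 57.3 and 54.8 and then 99.3, 50.05 and 69.4 in Pik3cd-/- ovaries. The untreated Pik3cd+/- arrays were widely spread, and the 3 E2-treated ones lay above the other 9 arrays. Its change in Pik3cd+/- of 1.75 ± 0.45 did not pass (padj = 0.0633), and the difference between the genotypes after E2 was the largest in size of the 34, at -2.04 ± 0.45 (padj = 0.0102). The probe set shared by Isg15 and Gm9706 read 279.6, 201 and 148 untreated and 456, 748 and 783 after E2 in Pik3cd+/-, and 197, 157 and 144 and then 238, 127 and 208 in Pik3cd-/-. It was not tested, and the E2-treated Pik3cd+/- arrays were again the highest of these 12.

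**Figure D3:**
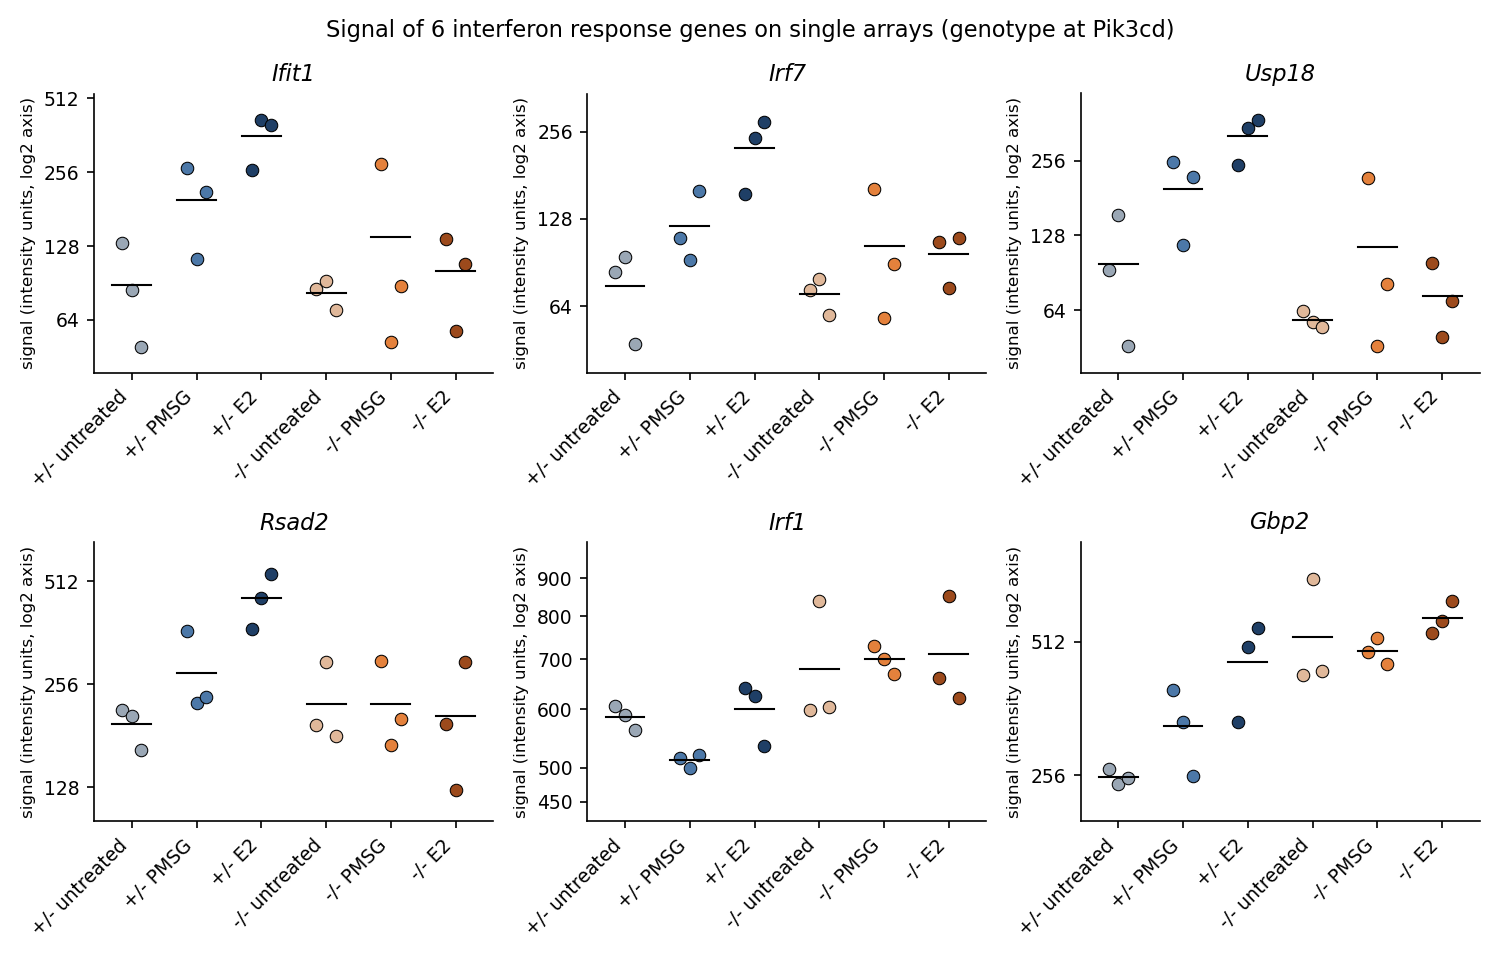
Points are single arrays and bars group means of the signal in intensity units (log2 axis) for 6 genes across the 6 groups. For Ifit1, Irf7, Usp18 and Rsad2 the E2-treated Pik3cd+/- arrays are above all E2-treated Pik3cd-/- arrays, Irf1 overlaps between untreated and E2-treated arrays, and Gbp2 is higher in untreated Pik3cd-/- ovaries (430.5 to 707) than in untreated Pik3cd+/- ovaries (245 to 264).

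Among the 8 other antiviral effectors tested, 3 were called higher after E2 in Pik3cd+/- and 6 lower in Pik3cd-/- after E2, with medians of 0.91 and -0.89. Rsad2 (viperin), which makes a chain-terminating nucleotide, read 215, 207 and 165 untreated and 372, 457 and 539 after E2 in Pik3cd+/- ovaries. Its readings in Pik3cd-/- ovaries were 194, 297 and 181 untreated and 195, 126 and 298 after E2, with full overlap. The change was 1.18 ± 0.28 in Pik3cd+/- (padj = 0.0472) and -0.16 ± 0.28 in Pik3cd-/- (padj = 0.796), and the genotypes differed by -1.18 ± 0.28 (padj = 0.0141). Rtp4, which restrains RNA virus replication, read 782, 589.6 and 402 untreated and 1431, 1926 and 1764 after E2 in Pik3cd+/-, against 728, 533 and 629 after E2 in Pik3cd-/-. There was no overlap between the E2-treated groups. The change was 1.56 ± 0.35 (padj = 0.0363) and the difference -1.43 ± 0.35 (padj = 0.0155).

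Bst2 (tetherin), which holds budding virions on the cell surface, read 1693, 1731 and 1303 untreated and 2049, 2046 and 1888 after E2 in Pik3cd+/- ovaries. In Pik3cd-/- ovaries it read 1096, 1118 and 1202 untreated and 1319, 1302 and 1167 after E2. The Pik3cd-/- arrays lay below the Pik3cd+/- arrays of the same treatment in both cases. The E2 change in Pik3cd+/- did not pass (0.35 ± 0.13, padj = 0.195), nor did the genotype difference in untreated ovaries (-0.46 ± 0.13, padj = 0.0771), while that after E2 passed (-0.66 ± 0.13, padj = 0.00701). Lgals3bp, a secreted glycoprotein, read 484, 507 and 351 untreated and 902, 1142 and 1169 after E2 in Pik3cd+/- (1.25 ± 0.26, padj = 0.0283). It read 487, 358 and 657 after E2 in Pik3cd-/-, a difference of -1.12 ± 0.26 (padj = 0.0133). Ifi35, an interferon-induced leucine zipper protein, differed by -0.66 ± 0.16 (padj = 0.0133).

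Xaf1, a pro-apoptotic gene, differed by -1.20 ± 0.32 after E2 (padj = 0.0230) on its brightest probe set. Its other probe set did not follow: it read from 31.2 to 681 within the E2-treated Pik3cd+/- group, 293 ± 241 (SD, n = 3) in untreated Pik3cd+/- and 21.8 ± 2.46 in untreated Pik3cd-/-. Cmpk2, a mitochondrial nucleotide kinase next to Rsad2, was not called in either E2 comparison (0.67 ± 0.25, padj = 0.182, and 0.14 ± 0.25, padj = 0.721). Mx2, a dynamin-like restriction factor, was at 70.3 ± 12.3 and 68.6 ± 2.09 after E2 in the genotypes (-0.02 ± 0.11, padj = 0.919). The other probe sets of Rsad2 went the way of the brightest, with group means of 41.1 and 42.7 untreated and 110.3 and 83.5 after E2 in Pik3cd+/-, and 51.2 and 42.9 after E2 in Pik3cd-/-.

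Parp9, Parp14 and Dtx3l act in ADP-ribosylation, where Dtx3l is the ubiquitin ligase that pairs with Parp9. Parp14 was called after E2 in Pik3cd+/-, going from 124, 95.5 and 84.5 to 168, 222 and 218, against 119.9, 91.5 and 130.5 after E2 in Pik3cd-/-. The E2-treated Pik3cd+/- arrays did not overlap with the others. The change was 0.95 ± 0.20 (padj = 0.0283) and the genotypes differed by -0.79 ± 0.20 (padj = 0.0178). Parp9 differed between the genotypes by -0.85 ± 0.21 (padj = 0.0162), with 336, 432 and 392 against 214, 187 and 231. Dtx3l differed by -0.39 ± 0.15 (padj = 0.0802). Its other probe set read 243, 247 and 241 after E2 in Pik3cd+/- and 151, 118 and 158 in Pik3cd-/-, without overlap.

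Of the 5 immunity GTPases, 2 were called higher after E2 in Pik3cd+/- and 0 between the genotypes after E2 by limma (1 at an unadjusted p under 0.05), with medians of 0.96 and -0.05. Of all genes, 1.18% were higher and 12.0% lower in these comparisons, so 0 of 5 between the genotypes is near the share of all genes. In untreated ovaries the mean log2 level of the 5 was already higher in Pik3cd-/- (8.33 to 8.80) than in Pik3cd+/- (7.90 to 8.22). Whether this class differs from the other members was not tested. Irgm1, which guides autophagy to pathogens, read 347, 339.7 and 306 untreated and 535, 695 and 742 after E2 in Pik3cd+/-. In Pik3cd-/- it read 412, 342 and 336 and then 439.5, 630.3 and 475. Within each genotype the groups did not overlap. The change was 0.96 ± 0.19 in Pik3cd+/- (padj = 0.0186) and 0.48 ± 0.19 in Pik3cd-/- (padj = 0.280), and the genotypes after E2 differed by -0.35 ± 0.19 (padj = 0.192). Gbp2, which coats and breaks vacuoles, read 264, 245 and 253 untreated and 337, 497 and 548 after E2 in Pik3cd+/- (0.81 ± 0.20, padj = 0.0498). It read 536, 570.5 and 633 after E2 in Pik3cd-/-, overlapping with the Pik3cd+/- arrays (0.35 ± 0.20, padj = 0.211).

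Replicate 2 of Pik3cd-/- after E2 carried much of the spread in this class. Igtp read 246, 795 and 349 in that group against 305, 392 and 334 in E2-treated Pik3cd+/- ovaries, and Ifi47 309, 667 and 398 against 381, 506 and 469. On the mean log2 level of the 5 GTPases this array was the highest of the 18 (9.26), while on the mean of the 3 IFIT genes it was at 6.62, below its group mates at 7.40 and 7.16. Its macrophage markers were at a mean of 6.81 against 7.95 and 8.53, and their part in the GTPase levels was not tested. Ifi47 differed between the genotypes by -0.05 ± 0.25 after E2 (padj = 0.916), a sign that turned after quantile normalization (0.04). Gbp3 differed by -0.70 ± 0.32 (padj = 0.133).

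Class I antigen processing was represented by Tap1, the peptide transporter, and the immunoproteasome subunits Psmb8 and Psmb9. None of the 3 was called in either E2 comparison by limma (3 and 0 at an unadjusted p under 0.05), and the medians were 0.57 and -0.10. With 1.18% of all genes higher and 12.0% lower in these comparisons, 0 of 3 does not set the class apart from other genes. Tap1 read 132, 129 and 108 untreated and 193, 184 and 195 after E2 in Pik3cd+/- (0.60 ± 0.16, padj = 0.0725), and 131, 178 and 176 after E2 in Pik3cd-/-. The 3 arrays of Pik3cd+/- after E2 were above those of Pik3cd-/- by a narrow margin (-0.24 ± 0.16, padj = 0.303). Psmb8 was, after E2 in Pik3cd+/- and Pik3cd-/-, at 305 ± 20.0 and 321 ± 62.5 (0.06 ± 0.20, padj = 0.865).

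**Figure D4:**
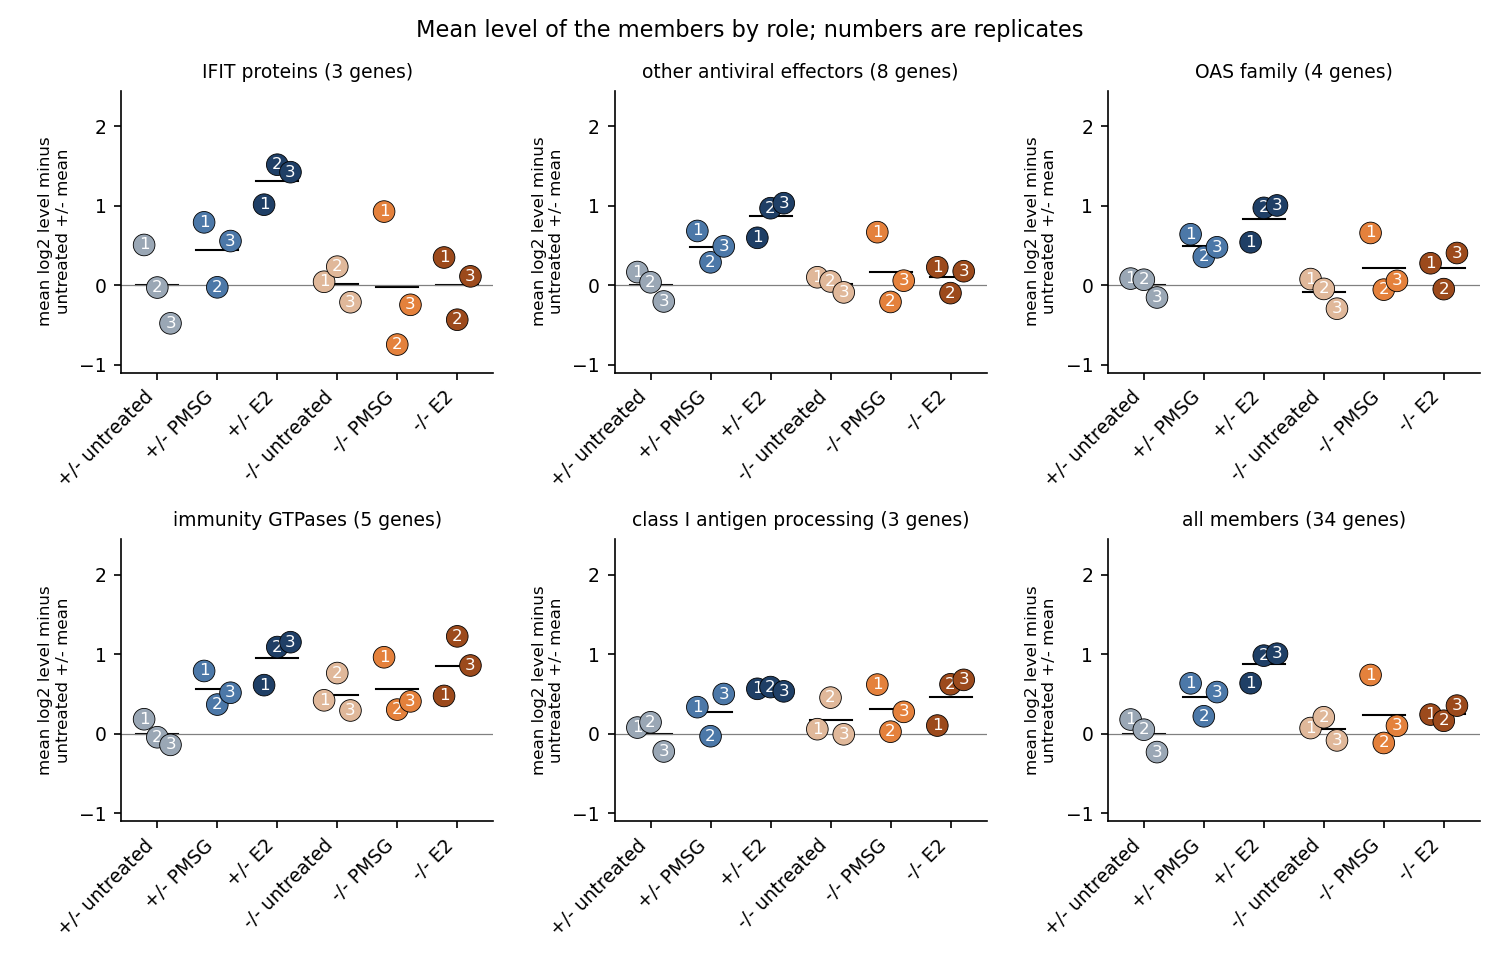
Each point is 1 array, numbered by replicate, and gives the mean log2 level over the genes of a role minus the mean of the 3 untreated Pik3cd+/- arrays; bars are group means of 3 arrays. For IFIT, OAS and other antiviral genes the 3 E2-treated Pik3cd+/- arrays lie above the 3 E2-treated Pik3cd-/- arrays, whereas for GTPases and class I genes these groups overlap, and replicate 1 of Pik3cd-/- after PMSG lies above its group mates in all 6 panels.

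Whether the E2 effect itself differed between the genotypes was tested as an interaction. By limma, 0 of the 34 genes and 0% of all genes passed (0 of 12703, with 923 at an unadjusted p under 0.05). Of the 34, 17 were at an unadjusted p under 0.05, the median was -0.58 against -0.05 for all genes, and 33 were negative, meaning a smaller E2 change in Pik3cd-/-, with Irf1 the exception (0.04). The smallest p-values belonged to Rsad2 (-1.34 ± 0.40, padj = 0.548), Parp9 (-0.90 ± 0.30, padj = 0.595), Xaf1 (-1.39 ± 0.46, padj = 0.595), Irf9 (-0.78 ± 0.27, padj = 0.616) and Ifi35 (-0.62 ± 0.22, padj = 0.650). Among the large differences were Ifit1 (-1.78 ± 0.67, padj = 0.660), Ifit3 (-1.75 ± 0.62, padj = 0.650) and Usp18 (-1.52 ± 0.64, padj = 0.670). A different response to E2 in the genotypes was thus not established for any single gene.

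After PMSG in Pik3cd+/- ovaries 6 of the 34 genes rose and 0 fell, with a median of 0.49 and a range of -0.29 to 1.09. Of all genes tested, 5.82% were called higher and 17.8% in either direction, with a median of -0.05. The single arrays of 16 of the 34 were higher without overlap, against 15.1% of all genes. The PMSG and E2 comparisons share the 3 untreated arrays. The 6 calls became 0 without untreated replicate 3 or PMSG replicate 1 of Pik3cd+/-, 1 without untreated replicate 1 or 2, and 2 without PMSG replicate 3. They became 12 with only the groups of the comparison in the model.

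Called after PMSG were Irf9 (0.66 ± 0.19, padj = 0.0255), Zbp1 (0.55 ± 0.16, padj = 0.0275), Oas1a (0.72 ± 0.21, padj = 0.0276), Lgals3bp (0.89 ± 0.26, padj = 0.0297), Irgm1 (0.60 ± 0.19, padj = 0.0367) and Ifi35 (0.48 ± 0.16, padj = 0.0434). Irf9 read 512, 382 and 482 after PMSG against 239 to 333 untreated, and Oas1a 199, 167 and 145 against 92.05 to 113. Neither gene overlapped between its groups. Ifit1 read 265, 114 and 212 against 131, 84.7 and 49.8, with overlap (1.09 ± 0.47, padj = 0.120). Usp18 did likewise, at 252, 117 and 219.7 (1.02 ± 0.45, padj = 0.127). Replicate 2 of this group was the lowest of the 3 for Ifit1, Usp18, Rtp4 and Irf7. Rtp4 gave 0.83 ± 0.35 (padj = 0.109) and Irf7 0.64 ± 0.31 (padj = 0.167). Stat2 (0.00 ± 0.14, padj = 0.985), Psmb8 (0.33 ± 0.20, padj = 0.255) and Tap1 (0.12 ± 0.16, padj = 0.642) did not pass, nor did Irf1, whose 3 PMSG arrays (515, 500.4 and 520.2) were all below the untreated ones (-0.19 ± 0.13, padj = 0.313).

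PMSG in Pik3cd-/- ovaries changed 0 of the 34 genes by limma, with 3 at an unadjusted p under 0.05, a median of 0.17 and a range of -0.33 to 0.72. Of all genes, 2.40% were called (305 genes, 2413 at an unadjusted p under 0.05). Replicate 1 stood apart here: Ifit1 read 277, 52.1 and 87.9, Usp18 217, 45.7 and 81.6 and Rtp4 1362, 409 and 559. The count was also 0 without that array. The smallest adjusted p of the 34 was that of Dhx58 (0.65 ± 0.23, padj = 0.140), followed by Lgals3bp (0.72 ± 0.26, padj = 0.162). Between the genotypes after PMSG, 0 of the 34 passed (3 at an unadjusted p under 0.05), the median was -0.21 with a range of -0.92 to 0.57, and 28 were negative. Of all genes, 4.13% were called. Without replicate 1 of Pik3cd-/-, Xaf1 was called lower in Pik3cd-/- (-1.08, padj = 0.0435).

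Irf1 had the smallest adjusted p of the 34 between the genotypes after PMSG. It was at 515, 500.4 and 520.2 in Pik3cd+/- and 729, 701 and 668 in Pik3cd-/-. The groups were far apart relative to their spread. The difference was 0.44 ± 0.13 (padj = 0.0602), and it was called after quantile normalization (padj = 0.0499), with only these groups in the model (padj = 0.00893), with a replicate block over all groups (padj = 0.0445) and without replicate 2 of untreated Pik3cd-/- or replicates 2 or 3 of E2-treated Pik3cd-/-. Ifit1 (-0.71 ± 0.47, padj = 0.478), Usp18 (-0.92 ± 0.45, padj = 0.302) and Irf9 (-0.41 ± 0.19, padj = 0.267) did not pass, nor did Rtp4 (-0.59 ± 0.35, padj = 0.421), Irf7 (-0.28 ± 0.31, padj = 0.706) or Oas1a (-0.30 ± 0.21, padj = 0.506). Same-numbered arrays of these groups deviated together, though the labels do not state that they are pairs. With only these groups and their replicate number as a block, a fit chosen after seeing the data, 3 of the 34 were called: Irf1 (padj = 0.0177) and Gbp2 (0.57, padj = 0.0254) higher and Usp18 (-0.92, padj = 0.0379) lower in Pik3cd-/-. In that fit 8.37% of all genes were called (1063 genes, against 525 in the model of all 6 groups without a block), which is close to the share of the 34. For the interaction of PMSG and genotype, 0 of the 34 genes and 0% of all genes passed (1 of the 34, and 1192 of all genes, at an unadjusted p under 0.05). The smallest p-values were those of Cmpk2 (-0.92 ± 0.35, padj = 0.431), Bst2 (0.34 ± 0.19, padj = 0.592), Xaf1 (-0.80 ± 0.46, padj = 0.598), Ifi47 (-0.59 ± 0.36, padj = 0.620) and Gbp3 (-0.72 ± 0.45, padj = 0.638).

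Untreated ovaries of the genotypes differed in 1 of the 34 genes, and 2.17% of all genes were called. The exception was Gbp2, at 264, 245 and 253 in Pik3cd+/- and 430.5, 707 and 439 in Pik3cd-/-. All Pik3cd-/- arrays were higher. The difference was 0.99 ± 0.20 (padj = 0.0275), and it was lost without any 1 of the 3 untreated Pik3cd+/- arrays, without replicate 2 of untreated Pik3cd-/-, or with only these groups in the model. Its other probe set had group means of 280.2 and 557. Over the 34 genes the median difference was 0.00, with a range of -0.53 to 0.99 and 3 at an unadjusted p under 0.05. Igtp (264, 407 and 235 against 229, 206 and 195) was also higher in Pik3cd-/- without overlap and was not called (0.47 ± 0.31, padj = 0.417). The same held for Cmpk2 (171, 122 and 174 against 102, 87.4 and 102) and Ifi47 (260, 410 and 277 against 251, 217 and 183), neither of them called. The share of all genes without overlap was not computed for this comparison, so these genes are not shown to stand apart from other genes. Antiviral genes called between the genotypes after E2 were not called in untreated ovaries: Ifit1 differed by -0.01 ± 0.47 (padj = 0.990), Irf7 by -0.04 ± 0.31 (padj = 0.957) and Irf9 by 0.01 ± 0.19 (padj = 0.986). Usp18 differed by -0.53 ± 0.45 (padj = 0.537) and Rtp4 by -0.24 ± 0.35 (padj = 0.740).

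Within groups, the genes varied together from array to array. After subtraction of each group's mean, the median correlation between pairs of the 34 genes over the 18 arrays was 0.57, and 0.42 without replicate 1 of Pik3cd-/- after PMSG, against 0.0543 for all tested genes. The values share arrays and RNA, so they are a description of these samples. A gene's median correlation with the others was highest for Xaf1 (0.79), Oasl2 (0.77), Lgals3bp (0.77), Rtp4 (0.74) and Dhx58 (0.73). It was lowest for Irf1 (0.0072), Cmpk2 (0.11), Gbp2 (0.24), Stat2 (0.28) and Igtp (0.29). Among untreated Pik3cd+/- ovaries the mean levels of the 3 IFIT genes were 7.56, 7.02 and 6.57.

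Other genes of the pathway were read from 7 lists with 81 tested genes. Of the interferon ligands 9 of 16 had a probe set and 2 passed the filter. Ifnb1 read 21.1 to 31.0 and Ifng 6.09 to 8.02 over the 18 arrays, both under the median signal of every array. Ifna1 was called between the genotypes after E2, higher in Pik3cd-/- (0.43 ± 0.13, padj = 0.0291) at 50.6 ± 3.75 against 35.3 ± 4.39. These signals are low: Ifna1 passed the filter by a narrow margin and only through E2-treated Pik3cd-/- ovaries, the group where it was called higher. The call is therefore not independent of the filter, and it ended on leaving out any 1 of 3 arrays. Receptors and proximal kinases (Ifnar1, Ifnar2, Ifngr1, Ifngr2, Jak1, Jak2 and Tyk2) had 0 of 7 called in any comparison by limma, with 0 and 3 of the 7 at an unadjusted p under 0.05 for E2 in Pik3cd+/- and for the genotypes after E2. Ifnar1, a chain of the type I receptor, was at 289.6 ± 21.0 and 250.2 ± 16.0 after E2 in the genotypes.

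In the sensing and induction list 1 of 13 genes was called higher after E2 in Pik3cd+/-, the RNA sensor Rigi (0.62 ± 0.14, padj = 0.0397). Rigi was also lower in Pik3cd-/- after E2 (-0.58 ± 0.14, padj = 0.0157), where the DNA sensor Cgas was higher (0.40 ± 0.12, padj = 0.0283). Among genes that restrain the response 1 of 8 was called higher after E2 in Pik3cd+/-. That gene was the RNA editing enzyme Adar, at 257 ± 9.19 untreated and 371 ± 6.89 after E2 (0.52 ± 0.08, padj = 0.00595). With the probe set of highest variance, the E2 calls of Adar (padj = 0.197) and Rigi in Pik3cd+/- were lost. Adar was at 284 ± 4.89 after E2 in Pik3cd-/-, a difference of -0.37 ± 0.08 (padj = 0.00706), and the dNTPase Samhd1 was lower too (-0.32 ± 0.09, padj = 0.0233). The suppressor of cytokine signalling Socs3 rose after PMSG in Pik3cd+/- (0.79 ± 0.11, padj = 7.4e-04), while Trim24 fell (-0.54 ± 0.10, padj = 0.00311).

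A list of further interferon-induced genes was also read. After E2 in Pik3cd+/- 3 of 36 rose and 0 fell (median 0.39): Phf11d (1.13 ± 0.24, padj = 0.0312), the helicase Ddx60 (0.94 ± 0.21, padj = 0.0331) and the nuclear body protein Sp100 (0.75 ± 0.17, padj = 0.0336). Between the genotypes after E2, 8 of 36 were lower in Pik3cd-/- and 0 higher (median -0.26), where 12.0% of all genes were lower (median -0.07). The smallest p-values were those of the ISG15 ligase Herc6 (-1.07 ± 0.22, padj = 0.00784), the ubiquitin ligase Trim25 (-0.75 ± 0.17, padj = 0.0131), Ddx60 (-0.85 ± 0.21, padj = 0.0149) and Pml (-0.38 ± 0.09, padj = 0.0169). After PMSG in Pik3cd+/- 1 of 36 rose, the membrane restriction factor Ifitm3 (0.60 ± 0.20, padj = 0.0461), and 1 fell, Parp12 (-0.44 ± 0.13, padj = 0.0344). Of all genes, 5.82% rose and 11.9% fell after PMSG in Pik3cd+/-, so 1 of 36 each way does not set this list apart. Of 10 other class I genes, B2m (0.47 ± 0.14, padj = 0.0348) and H2-K1 (0.51 ± 0.17, padj = 0.0472) rose after PMSG in Pik3cd+/-, and H2-K1 was higher in untreated Pik3cd-/- ovaries (0.68 ± 0.17, padj = 0.0497). The PMSG call of H2-K1 ended on leaving out any 1 of 11 arrays, and its untreated call any 1 of 12. For B2m and Ifitm3 after PMSG this was so for any 1 of 4 and of 9 arrays. After E2 the peptide-trimming enzyme Erap1 was lower in Pik3cd-/- (-0.40 ± 0.11, padj = 0.0237) and the chaperone Calr higher (0.30 ± 0.07, padj = 0.0153).

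Of 5 paralogs of Oas1a, 3 were called opposite to the called members after PMSG in Pik3cd+/- and between the genotypes after E2. Oas1a itself was not called between the genotypes. Oas1e was at 2200.04 ± 111 untreated, 1003 ± 114 after PMSG and 1347 ± 199 after E2 in Pik3cd+/-, and at 3093 ± 689.8, 2204 ± 234 and 2445 ± 977 in Pik3cd-/-. After PMSG in Pik3cd+/- 3 of 5 paralogs fell: Oas1c (-1.03 ± 0.21, padj = 0.00522), Oas1e (-1.13 ± 0.24, padj = 0.00641) and Oas1h (-0.90 ± 0.23, padj = 0.0171). The same 3 were higher in Pik3cd-/- after PMSG, by 1.19, 1.13 and 1.09 (padj = 0.00645, 0.0180 and 0.0185), and after E2, by 0.99, 0.77 and 0.99 (padj = 0.00838, 0.0400 and 0.0131). Of all genes, 11.9% fell after PMSG in Pik3cd+/-, and 3.09% and 4.87% were higher in Pik3cd-/- after PMSG and after E2. Of 7 oocyte markers, 5 fell after PMSG in Pik3cd+/-, and 6 and 7 were higher in Pik3cd-/- after PMSG and after E2. The summed signal of the 7 was 10749 to 11720 in untreated, 5568 to 6458 in PMSG-treated and 7026 to 7932 in E2-treated Pik3cd+/- ovaries, and 16134 to 19305, 12752 to 14383 and 10290.1 to 18448 in Pik3cd-/- ovaries. Their part in the paralogs' differences was not tested, nor was cross-hybridisation between close relatives such as these, Oas1a and Ifit3.

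Immune cell markers were read beside the members. Of 12 macrophage markers 4 rose after PMSG in Pik3cd+/- (median 0.93), and none was called for E2 in Pik3cd+/- (median 0.62) or between the genotypes after E2 (median 0.09). Of all genes, 5.82% rose after PMSG and 1.18% after E2 in Pik3cd+/-, and 16.9% were called between the genotypes after E2. With so small a share for E2, none of 12 does not set these markers apart from other genes. The summed signal of the 12 markers was 2099 to 2415 in untreated, 2916 to 5711 in PMSG-treated and 3227 to 3432 in E2-treated Pik3cd+/- ovaries, and 2580.5 to 5221, 3564 to 4537 and 1579 to 6912 in Pik3cd-/- ovaries. E2-treated Pik3cd+/- ovaries thus lay above the untreated ones. The E2-treated Pik3cd-/- arrays read 4459, 1579 and 6912. Replicates 1 and 3 were above all E2-treated Pik3cd+/- arrays, and replicate 2, which stood apart, was below them. The part of macrophages in the E2 and PMSG effects was not tested. Markers of T and NK cells (9 genes, summed signal 274 to 361), dendritic cells (4 genes, 101 to 130.1), plasmacytoid dendritic cells (4 genes, 161 to 231), B cells (3 genes, 135 to 214) and neutrophils (6 genes, 173 to 740.4) were low, and none of them was below the pseudocount on every array.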

How the data were processed

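Whole ovaries of 18 biological replicates (6 groups of 3, grouped by the labels) were hybridised to 1 Affymetrix 430 2.0 array each. The sample titles do not state whether a replicate was 1 mouse. The deposited intensity values, 1 per probe set, were used as they stand; MAS5 is named in the submitters' processing notes, and the scaling is not given in the sources used here. Of 45101 probe sets, 34945 carry 1 gene symbol, updated through RefSeq (GRCm38.p6) and reduced to 18161 genes. Signals were taken as log2(signal + 8.58), the pseudocount being the 10th percentile of all values. Genes with a group mean above 5.87, the median of all log2 values, were tested (12703) with limma 3.58.1 in R 4.3.3 (6 group means, trended eBayes, 12 residual and 3.66 prior degrees of freedom) and Benjamini-Hochberg adjustment over all of them, in 9 comparisons. Replicate numbers, from the labels, were checked for pairing by the correlation of same-numbered arrays' deviations from their group means: of 15 pairs of groups, only Pik3cd+/- and Pik3cd-/- after PMSG were over 0.1 for all 3 numbers (0.26, 0.25 and 0.30), and 14 were not. Single correlations in the other pairs of groups ranged from -0.34 to 0.34, and the labels do not state that any arrays are paired. The code was tested on simulated data. Only 3 arrays a group limit the precision. Members and lists were chosen with earlier results of these data known. Genes named with values were up to 10 called members per comparison by adjusted p, 11 fixed members, up to 4 called genes per pathway list, and 5 members per interaction; other genes given with values were picked with those values known. Results were recomputed with other pseudocounts and filters, quantile normalization, untrended eBayes, the compared groups alone, a replicate block, each gene's most variable probe set, and without each array.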

Additional observations from a re-analysis of the deposited data

How the results depend on the processing

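All calls are from limma on 3 arrays a group, so single arrays weigh heavily. Leaving out each array in turn gave 0 to 8 of the 34 genes called for PMSG in Pik3cd+/-, 0 to 21 for E2 in Pik3cd+/-, 0 to 1 for the genotypes untreated, 0 to 1 for the genotypes after PMSG, 3 to 19 for the genotypes after E2, and 0 in the remaining 4 comparisons. With only the groups of the comparison in the model the counts were 12, 26, 0, 1 and 6 in the same order, and quantile normalization gave 1 for the genotypes after PMSG. The replicate number as a block over all groups gave 5, 9, 1, 1 and 17, and 0 in the remaining 4 comparisons. For the genotypes after PMSG, the only groups whose same-numbered arrays all correlated over 0.1, the block with these groups alone, chosen after seeing the data, gave 3. The labels do not state that these arrays are pairs. Of 74 calls of named genes 8 were kept under every alternative run, 62 ended on leaving out some array and 43 under another setting. Read from the probe set with the highest variance, Adar after PMSG in Pik3cd+/- gave -0.31 (padj = 0.122) and Xaf1 between the genotypes after E2 gave 1.61 (padj = 0.368), in both cases from a different probe set than the main value. Other calls that ended in this setting included Adar (padj = 0.197), Rigi and Sp100 for E2 in Pik3cd+/-. Samhd1 and Erap1 between the genotypes after E2 were also lost. After quantile normalization the sign of 1 member each differed in 5 of the 9 comparisons and of none in the other 4.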
